A study of Gorilla gorilla gorilla with 14 samples.

Results

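The regions described are the ATAC-seq peaks of basal intermediate progenitors (bIP) that were called in no other sorted cell type of gorilla cerebral organoids. ATAC-seq uses a transposase to cut open chromatin, so a peak is a stretch of DNA that was accessible to the enzyme. The regions were chosen by the deposited peak calls: a bIP peak was taken when not a single base of it lay in a peak of neurons (N), of basal radial glia (bRG) or of apical radial glia (aRG). This gave 9994 of the 71389 distinct bIP intervals. Among 289935 distinct intervals summed over the 4 cell types, 21231 were found only in N, 5607 only in bRG and 8661 only in aRG.

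All 14 libraries came from organoids in week 8 of culture, grown from GC1, a gorilla induced pluripotent stem cell line, so every group is 1 line and shares its genotype. Cells were sorted by fluorescence into bIP (n = 5), BCL11B+ neurons (N, n = 4), bRG (n = 2) and aRG (n = 3), with no treatment that differed between groups. Libraries were made by a protocol for fixed cells with an overnight crosslink reversal. Library numbers in the labels form 2 runs, called the second and the first library series here. The second held bIP replicates 4 and 5, N replicates 3 and 4, both bRG libraries and aRG replicate 3, and the first held the other 7. Whether the libraries of a group are separate cultures is not stated in the labels, and the p-values rest on a between-library spread that may be technical in part.

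Intermediate progenitors are born from radial glia, divide on the basal side of the germinal zone and give rise to neurons. The T-box factor EOMES marks them. Chromatin that opens away from promoters often carries enhancers, which are more specific to a cell type than promoters are. The labels were checked at promoters. The EOMES promoter had 83.0 ± 19.8 CPM (counts of a region per 1000000 counts of the library) in bIP (SD, n = 5), against 36.5 ± 4.48 in N (n = 4), 45.8 ± 0.729 in bRG (n = 2) and 31.5 ± 13.0 in aRG (n = 3). The promoter of SOX2, a stem cell factor, had 32.9 ± 7.73 CPM in bIP, 9.59 ± 1.56 in N, 49.0 ± 3.71 in bRG and 59.3 ± 1.59 in aRG. The BCL11B promoter did not single out the neurons, with 23.6 ± 3.03 CPM in bIP, 20.3 ± 3.80 in N, 14.2 ± 0.985 in bRG and 19.7 ± 3.50 in aRG. In bulk libraries, fewer open cells and less signal per cell cannot be told apart.

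Folds and q-values of peaks are the authors' own and come from 1 peak set per cell type, with no replicates. The bIP-only intervals were narrower and weaker than the bIP intervals shared with another cell type. Their median width was 681.5 bp, against 966 bp for the shared ones, and their median fold enrichment was 6.20, against 10.1. The median −log10 q was 98.8, within a range of 10.4 to 1026, against 311 for the shared intervals. A single summit was listed for 58.1% of bIP-only intervals and for 29.2% of shared ones. The median gap to the nearest peak of another cell type was 4387 bp, with 1137 intervals closer than 500 bp and 2554 at least 10000 bp away. Every chromosome with bIP peaks held some, from 7.75% of its bIP intervals on chromosome 19 to 16.3% on chromosome 18. None lay on chromosomes 2A and 2B, where the peak sets hold no interval although the count table has 17364 regions there.

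Counts were available for most of these intervals, from libraries of 12834983 to 26660427 counts. In the count table, 9416 of the 9994 intervals touched a region, and 578 touched none and have no counts. Because 27 regions held more than 1 interval, the linked regions numbered 9389. Of these, 260 were also touched by a peak of another cell type, since a count region can be wider than a peak, and 9129 were not. A filter on low counts kept 9388 of the 9389. Positions are given on gorGor6.

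Promoters were rare among the bIP-only regions. A listed distance of at most 1000 bp to the closest gene was found for 441 of 9389, or 4.70%, against 22.9% of regions under shared bIP peaks and 10.1% of all 204249 regions. Peaks found in only 1 of the other cell types had like shares, 4.39% in N, 6.21% in bRG and 4.92% in aRG, and regions under no peak had 4.22%. Most regions, 5686 or 60.6%, lay over 10000 and at most 100000 bp from the listed gene, and 923 lay farther. The median distance was 24019.5 bp for bIP-only regions, 12748 bp for shared bIP regions and 24137 bp for regions under no peak. The file does not say from which point distance was measured. No human position was listed for 1.99% of bIP-only regions and no chimpanzee position for 2.42%, close to the 1.90% and 2.71% of shared bIP regions.

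The share of each library's counts that fell in bIP-only regions was highest in bIP, as the choice of the regions implies. It was 3.63%, 3.66%, 4.08%, 4.58% and 4.74% in bIP replicates 1 to 5, with a mean of 4.14% ± 0.510 (SD, n = 5). In N it was 2.18%, 2.02%, 2.72% and 2.18%, in bRG 1.75% and 1.85%, and in aRG 1.34%, 1.29% and 1.71%. No bIP library overlapped a library of another cell type. Among the others, N lay above both kinds of radial glia in all 4 libraries, and aRG replicate 3, of the second series, lay above aRG replicates 1 and 2.

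**Figure D1:**
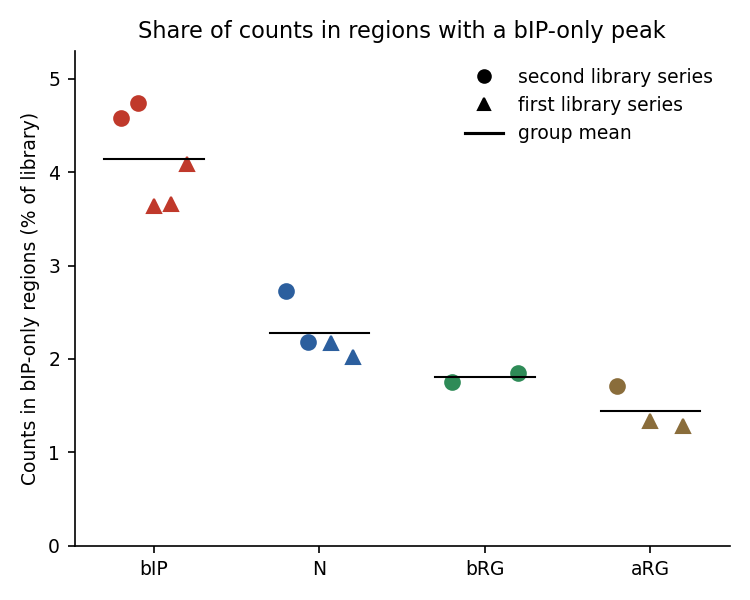
Share of each library's counts that fell in regions with a bIP-only peak, in percent, by cell type. Points are libraries, circles of the second and triangles of the first library series, and lines are group means. The 5 bIP libraries sit between 3.63% and 4.74%, above all others, and the 2 bIP libraries of the second series are the highest.

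Levels per kilobase of region showed how open these regions were elsewhere. The median region with a bIP-only peak had 4.13 CPM per kb in bIP, against 2.02 in N, 1.57 in bRG and 1.30 in aRG. Regions under no peak of any cell type had medians of 1.02 in bIP, 1.38 in N, 1.00 in bRG and 0.897 in aRG. Thus the bIP-only regions were above the level of peak-free regions in every cell type, and absence from a peak set did not mean absence of counts. Under shared bIP peaks the medians were 6.59 CPM per kb in bIP, 5.60 in N, 5.36 in bRG and 5.33 in aRG.

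**Figure D2:**
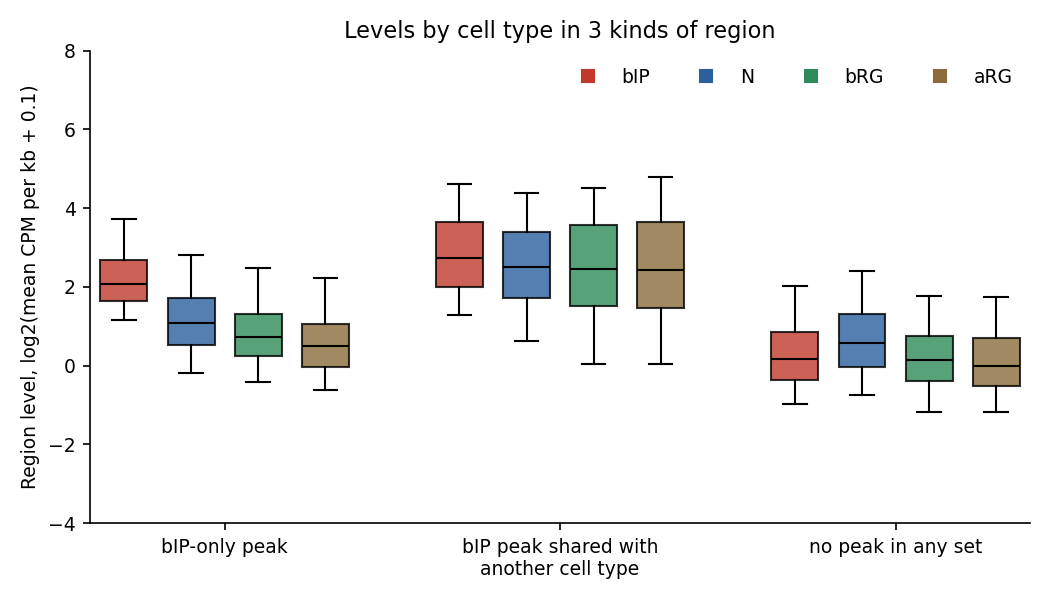
Levels of regions in each cell type, as log2 of the mean CPM per kb of region plus 0.1, for regions with a bIP-only peak, with a bIP peak shared with another cell type, and with no peak. Boxes span the middle of the regions around the median line and whiskers run from the 5th to the 95th percentile of regions. In the bIP-only regions the median is highest in bIP (4.13 CPM per kb) and then falls in the order N (2.02), bRG (1.57) and aRG (1.30).

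How sharply single regions were marked by bIP varied. This contrast chose the regions, so it is described without a test. The median log2 fold change was 1.13 for bIP over N, 1.65 for bIP over bRG and 1.66 for bIP over aRG. Every bIP library exceeded every other library in 4252 of 9389 regions, or 45.3%, a pattern present in 6.25% of all tested regions. The bIP mean was the highest of the 4 in 7818 regions, or 83.3%, and at least 2-fold above the next cell type in 3996, or 42.6%. Over all 204249 regions these shares were 20.7% and 4.78%. Apart from bIP, the highest mean was that of N in 58.5% of regions, bRG in 32.2% and aRG in 9.31%. Over all regions these shares were 49.7%, 22.2% and 28.1%. Under no peak they were 59.6%, 22.7% and 17.7%, so the share of N was close to that of peak-free regions.

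In 1571 bIP-only regions bIP did not have the highest mean. N was highest in 1127 of them, bRG in 321 and aRG in 123. Their peaks were weaker, with a median −log10 q of 58.1, against 117 where bIP was highest, and with 2.97 CPM per kb in bIP against 4.43. Set in 4 bins of rising −log10 q, the bIP mean was the highest in 63.2%, 80.1%, 91.8% and 98.1% of regions. Among the 9129 regions with no other cell type's peak, 880 (9.64%) reached in N the median level of N-only regions, 4.89 CPM per kb. In bRG 797 (8.73%) reached the corresponding 3.78 CPM per kb, and in aRG 679 (7.44%) reached 3.42. These regions were as open in that cell type as a typical peak found only there. The counts behind the peak sets differed, with 102533824 in bIP, 78870914 in N, 39973802 in bRG and 65529998 in aRG, and the part of depth in what was called was not tested.

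The rule's edge held few intervals. Just inside it, 10 bIP intervals lay 50 bp or less from another cell type's peak, and their 9 regions had medians of 6.27 CPM per kb in bIP, 6.52 in N, 2.53 in bRG and 2.01 in aRG. Just outside, 8 bIP intervals were overlapped by 1 to 50 bp, with 5.16 in bIP, 2.09 in N, 2.38 in bRG and 2.28 in aRG.

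Among regions with no other cell type's peak, the one with the highest bIP level lay 1718 bp from ZIC2, a zinc-finger factor of early neural development (chr13:79680093-79681324). It had 35.0, 35.0, 22.6, 52.2 and 59.4 CPM in bIP replicates 1 to 5, against 10.7, 8.28, 9.98 and 7.93 in N, 14.8 and 12.8 in bRG, and 6.71, 6.73 and 14.5 in aRG. No library of another cell type reached bIP, which spread from 22.6 to 59.4 CPM, while aRG overlapped N and bRG. Second came a region 88772 bp from AC025030.1, a gene with no role known here (chr12:40786354-40787984). It had 26.2 ± 3.85 CPM in bIP, 4.56 ± 0.965 in N, 4.19 and 4.54 in bRG, and 1.82, 2.12 and 5.15 in aRG, and again no library of another cell type reached bIP. A region 89322 bp from LINC01967, a long noncoding RNA, was more even between bIP libraries (chr3:28202225-28203308). It had 27.3, 25.9, 18.6, 26.0 and 28.0 CPM in bIP, against 3.00, 2.44, 1.73 and 1.59 in N, 2.83 and 3.79 in bRG, and 1.30, 1.43 and 2.65 in aRG. The difference of bIP was 3.52 on the log2 scale over N, 2.96 over bRG and 3.81 over aRG.

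Not all strongly open regions were as sharp. A region 39369 bp from MIR9-3, a locus of the neural microRNA miR-9, had 21.2, 21.3, 16.7, 30.3 and 34.5 CPM in bIP, against 8.92, 9.71, 8.88 and 13.6 in N, 16.7 and 13.4 in bRG, and 11.1, 14.5 and 18.7 in aRG (chr15:64329898-64330701). There bIP overlapped bRG and aRG. A region 4398 bp from ELAVL4, which encodes a neuronal RNA-binding protein, had 26.5, 25.9, 20.6, 23.8 and 26.3 CPM in bIP, against 12.2, 9.91, 7.44 and 11.4 in N, 6.92 and 6.41 in bRG, and 3.28, 3.12 and 6.42 in aRG (chr1:45101170-45102091). It stepped down in the order bIP, N and radial glia. The region 2979 bp from LINC01686 had the reverse order among the others, with 24.0 ± 3.88 CPM in bIP (SD, n = 5), 2.69 ± 1.18 in N, 5.46 and 6.41 in bRG and 3.83, 4.18 and 5.73 in aRG.

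The highest deposited q-values led to other regions. The first was 62810 bp from LINC01378 (chr4:115184788-115186342), with a −log10 q of 1026. It had 21.3, 19.3, 20.2, 19.1 and 21.0 CPM in bIP, against 5.73, 2.65, 4.13 and 3.38 in N, 3.38 and 2.62 in bRG, and 0.948, 1.18 and 2.99 in aRG. The 5 bIP libraries lay between 19.1 and 21.3 CPM. A region 73752 bp from LINC02264 lies on the same chromosome and had 24.0 ± 2.29 CPM in bIP, 3.63 ± 0.196 in N, 2.17 and 2.53 in bRG, and 1.38, 1.31 and 2.45 in aRG. MRAS, a Ras-family GTPase gene, had a region 8311 bp away with 11.4 to 24.5 CPM in the 5 bIP libraries, 2.92 ± 1.15 in N, 1.97 and 2.29 in bRG, and 0.948, 0.686 and 2.65 in aRG. The other regions of the 6, near AC007956.2, AC005831.1 and RN7SKP86, had bIP means of 13.7 ± 1.15, 21.3 ± 3.84 and 12.7 ± 4.40 CPM. In all 6, every bIP library was above every other library. At the LINC01378, LINC02264 and MRAS regions aRG replicate 3 was 2.45 to 2.99 CPM, above the 0.686 to 1.38 of aRG replicates 1 and 2.

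**Figure D3:**
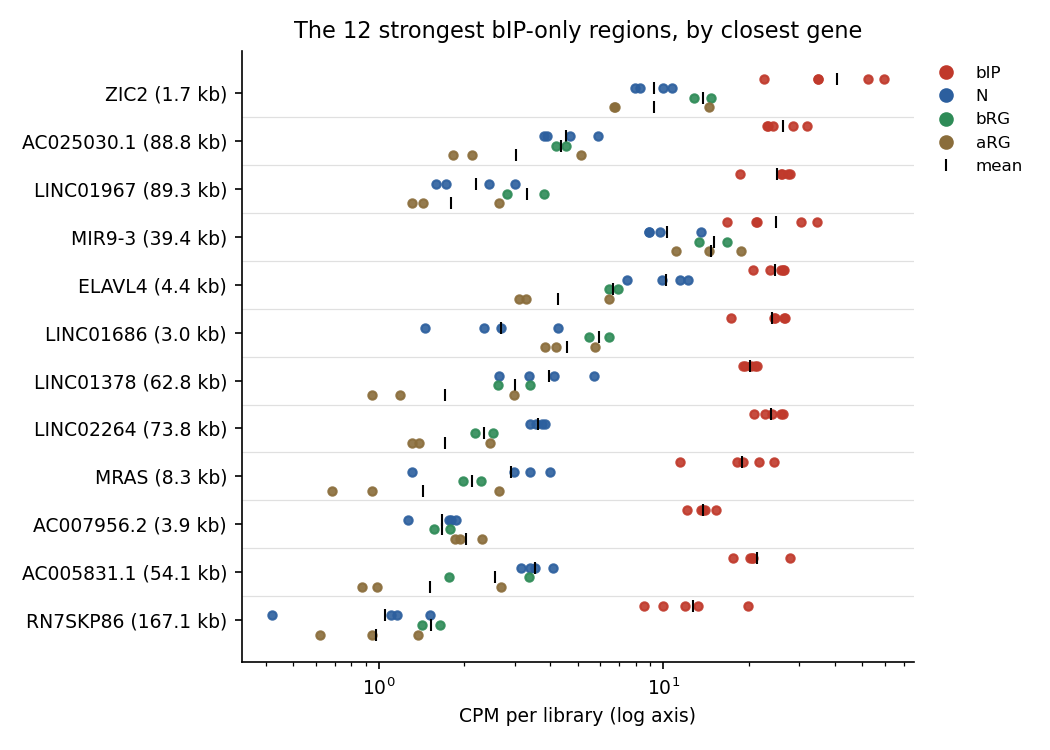
CPM in each library on a log axis for 12 bIP-only regions, the 6 with the highest bIP mean and the 6 with the highest deposited −log10 q, named by closest gene and listed distance. Points are libraries and ticks are group means. At LINC01967 the 5 bIP libraries lie between 18.6 and 28.0 CPM and all others at or below 3.79, while at MIR9-3 bIP overlaps bRG and aRG.

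Among promoters of protein-coding genes the bIP-only pattern was less regular. MDM1, which encodes a microtubule-binding protein of centrioles, had 18.0, 17.3, 16.4, 26.3 and 23.1 CPM in bIP at 982 bp, against 6.50, 4.34, 4.56 and 4.50 in N, 13.0 and 13.5 in bRG, and 9.95, 9.79 and 12.8 in aRG. Radial glia lay between bIP and N. GPR12, an orphan G-protein-coupled receptor gene, had 13.8, 15.1, 16.3, 17.1 and 23.3 CPM in bIP and 18.1, 19.9, 17.1 and 22.5 in N, against 4.80 and 4.45 in bRG, and 3.87, 3.49 and 5.93 in aRG. At GPR12 bIP and N overlapped, although no N peak was called there. BHLHE22, a basic helix-loop-helix repressor gene, had 16.1 ± 3.55 CPM in bIP, 5.67 ± 2.06 in N, 6.42 and 6.37 in bRG, and 3.32, 2.81 and 7.35 in aRG. ZNF467, a zinc-finger gene, had 12.5, 13.3, 12.5, 14.1 and 17.6 CPM in bIP, 4.94 ± 1.50 in N, 2.93 and 3.28 in bRG, and 3.75, 4.93 and 4.07 in aRG.

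Genes known from intermediate progenitors were often the closest gene. The closest gene is a listing by position and does not name a target. Of a list of 20 intermediate progenitor genes, 17 had regions off chromosomes 2A and 2B, and 9 of these were closest to a bIP-only region, namely ELAVL4, EOMES, GADD45G, INSM1, KIF26B, MFNG, NEUROG1, NHLH1 and SSTR2. Their regions made up 14 of 126, or 11.1%, of the list's regions, against 5.02% of all regions. Over all 36201 gene names, 17.8% were closest to a bIP-only region, and over 11986 protein-coding names 14.1%. Of the 14, bIP had the highest mean in 13, and every bIP library was above every other library in 8. These patterns were present in 83.3% and 45.3% of bIP-only regions, and in 20.7% and 6.15% of all 204249 regions. The list includes EOMES, which defines the cell type, and was drawn up with earlier results of these data known.

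EOMES itself had a pair of such regions, which differed between the bIP libraries. The region at 10388 bp (chr3:27784201-27784754) had 3.97, 4.53, 3.26, 9.45 and 8.45 CPM in bIP, against 0.623, 0.543, 0.864 and 0.375 in N, 0.707 and 1.17 in bRG, and 0.553, 0.125 and 1.32 in aRG. The region at 23853 bp (chr3:27797547-27798674) had 5.97, 4.79, 6.52, 3.53 and 3.23 CPM in bIP, against 2.30, 2.24, 1.20 and 0.703 in N, 1.11 and 1.12 in bRG, and 1.03, 0.748 and 0.588 in aRG. Between the second and the first library series the nearer region was higher (log2 1.19 ± 0.26 SE, edgeR adjusted p = 0.00208) and the farther one lower (−0.77 ± 0.25, edgeR adjusted p = 0.0383). The call at the farther EOMES region was lost without any one of bIP replicates 1, 3, 4 and 5 and in DESeq2 (adjusted p = 0.103), while the nearer one was kept in every alternative run.

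The proneural factor NEUROG1 had a region at 1807 bp (chr5:115103022-115103895) that was second highest in radial glia. It had 16.6, 13.7, 9.70, 21.9 and 18.3 CPM in bIP, against 1.36, 1.76, 3.31 and 1.88 in N, 9.60 and 11.5 in bRG, and 5.73, 6.36 and 10.9 in aRG. N was lower than aRG there (log2 −1.99 ± 0.23 SE, edgeR adjusted p = 4.77e-08) and lower than bRG (−2.05 ± 0.26, edgeR adjusted p = 2.91e-07). NHLH1, a basic helix-loop-helix gene of newly committed neurons, showed the other order in its 2 regions. At 1318 bp (chr1:130990049-130990556) it had 10.6, 10.9, 10.8, 14.4 and 18.3 CPM in bIP, against 3.93, 4.62, 4.85 and 3.71 in N, 2.22 and 1.83 in bRG, and 0.474, 0.935 and 2.01 in aRG. N was higher than aRG (log2 1.91 ± 0.29, edgeR adjusted p = 2.69e-06) and bRG (1.36 ± 0.33, edgeR adjusted p = 0.00086). At 1321 bp (chr1:130986868-130987408) NHLH1 had 16.2 ± 4.34 CPM in bIP (SD, n = 5), 2.49 ± 0.409 in N, 2.02 and 1.50 in bRG, and 0.513, 0.374 and 1.96 in aRG.

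INSM1, a zinc-finger factor that promotes basal progenitors in the mouse, was closest to 4 regions, the most in this list. They lay 31517 to 103274 bp away and did not share a pattern. At 31517 bp INSM1 had 10.0, 8.79, 8.66, 22.1 and 22.9 CPM in bIP, against 2.57, 2.44, 2.54 and 2.25 in N, 2.93 and 2.57 in bRG, and 1.18, 1.18 and 3.68 in aRG. At 44548 bp, in a region also under another cell type's peak, INSM1 had 30.1 ± 5.45 CPM in bIP (SD, n = 5), 9.96 ± 0.597 in N, 14.3 and 13.3 in bRG, and 20.0, 19.8 and 15.0 in aRG. N was lower than aRG there (log2 −0.87 ± 0.19 SE, edgeR adjusted p = 0.000254), as it was at 92975 bp (−0.85 ± 0.28, edgeR adjusted p = 0.00916). Neither INSM1 call held within the second library series (edgeR adjusted p = 0.162 and 0.0941), and the one at 92975 bp was also lost without aRG replicate 3 (0.0576) and with scaling over regions under a peak of all 4 cell types (0.152). At 103274 bp N was the higher one (1.29 ± 0.27, edgeR adjusted p = 0.000206).

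The other genes of the list had weaker or less specific regions. GADD45G, a growth-arrest gene of newborn neural precursors, had 85.7 ± 16.2 CPM in bIP at its promoter, 57.1 ± 10.5 in N, 66.7 and 66.0 in bRG, and 80.2 ± 7.40 in aRG (SD, n = 3), in a region also under another cell type's peak. bIP overlapped the other 3 cell types there. MFNG, a fringe glycosyltransferase that modifies Notch receptors, had 5.41 ± 1.36 CPM in bIP, 1.65 ± 0.766 in N, 1.21 and 1.83 in bRG, and 0.750, 0.873 and 0.980 in aRG. KIF26B, a kinesin family gene, had 1.97, 2.20, 3.53, 4.86 and 9.61 CPM in bIP, against 0.777 ± 0.298 in N, 1.26 and 1.73 in bRG, and 0.355, 0.561 and 2.16 in aRG. At the somatostatin receptor gene SSTR2, bIP with 2.15 ± 0.866 CPM did not exceed N with 2.71 ± 1.16, while bRG had 0.808 and 0.281 and aRG 0.671, 0.187 and 0.882.

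Over the 14 regions of the intermediate progenitor list, N was higher than aRG in 7 and lower in 4 with an edgeR adjusted p below 0.05, and the median log2 difference was 0.59. Over all bIP-only regions N was higher in 40.7% and lower in 9.95%, and over all regions in 37.1% and 29.2%. The second library series of bIP was higher than the first in 7 and lower in 1, with a median of 0.59, beside 34.7% higher and 1.36% lower over all bIP-only regions and 8.47% and 5.47% over all regions.

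**Figure D4:**
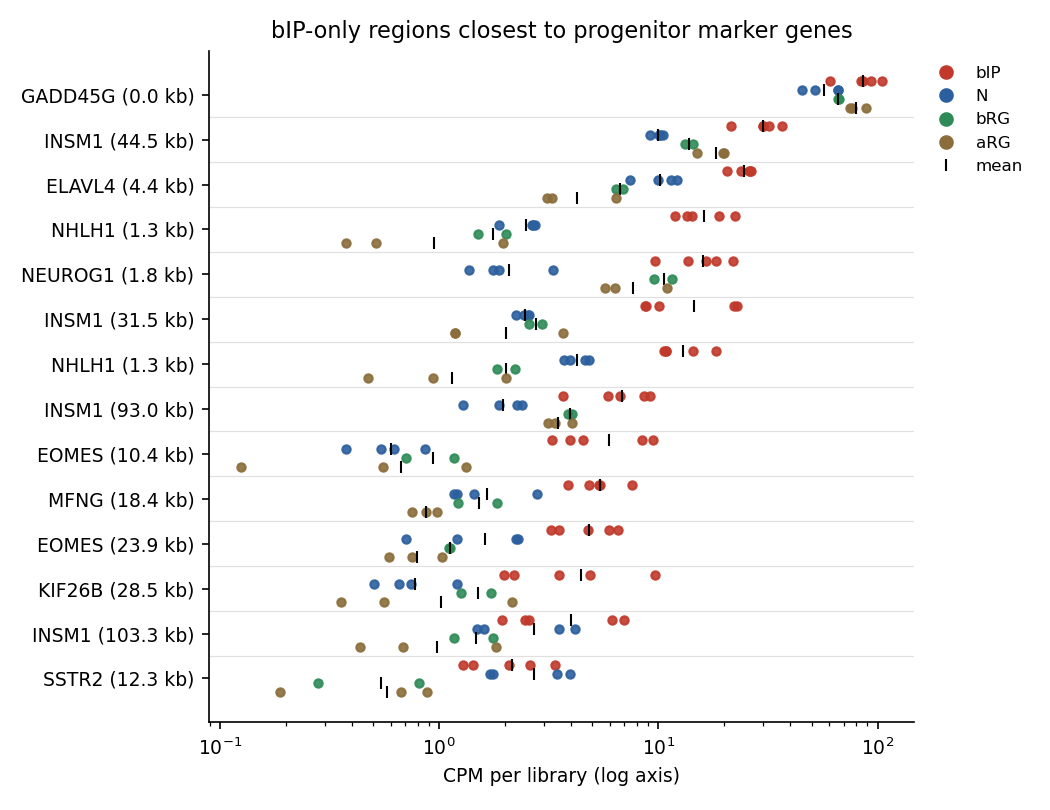
CPM in each library on a log axis for the 14 bIP-only regions closest to genes of the intermediate progenitor list, by gene and listed distance. Points are libraries and ticks are group means. The 2 regions of EOMES have their bIP libraries at 3.23 to 9.45 CPM, and at NEUROG1 radial glia (5.73 to 11.5 CPM) lie above N (1.36 to 3.31).

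Genes of neuronal migration and cell shape held the most bIP-only regions of the lists examined by count, though by share the intermediate progenitor list (11.1%) and the list for the oligodendrocyte lineage and astrocytes (10.3%) were above it. Of 20 genes measured, 12 were closest to one, with 26 of 267 regions, or 9.74%, beside 5.02% of all regions. RND2, a gene active in migrating cortical neurons, had 11.7, 9.51, 9.91, 11.8 and 15.9 CPM in bIP at 4109 bp (chr5:38934891-38935398), against 2.03, 1.97, 1.44 and 0.985 in N, 2.53 and 2.20 in bRG, and 1.22, 1.50 and 1.81 in aRG. EPHA3, an ephrin receptor gene, was closest to 5 regions and the semaphorin receptor gene PLXNA4 to 4, the most in the list. The EPHA3 region at 1644 bp had 4.92, 5.56, 8.46, 11.2 and 12.8 CPM in bIP, against 3.08, 3.46, 2.26 and 2.53 in N, 2.68 and 1.73 in bRG, and 0.632, 0.810 and 2.16 in aRG. N was higher than aRG in 12 of the 26 regions and lower in 1 (edgeR adjusted p below 0.05), and the median log2 difference was 0.71. Over all bIP-only regions N was higher in 40.7% and lower in 9.95%, and over all regions in 37.1% and 29.2%, and the list's difference from these was not tested. bIP had the highest mean in 21 of the 26 regions, beside 83.3% of all bIP-only regions. It was highest in neither of the 2 regions of the guidance ligand gene SLIT2 nor in that of the semaphorin co-receptor gene NRP1. At CDH4 it was highest in 1 of 2 regions and at ROBO1 in 2 of 3.

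Of 17 Notch pathway genes listed, 11 were measured and 3 of these had a bIP-only region. These regions made up 3 of the list's 61, or 4.92%, close to the 5.02% of all regions. In each, every bIP library was above all others, a pattern in 45.3% of bIP-only regions and 6.25% of all tested regions. DLL4, a Notch ligand gene, had 16.9, 14.7, 11.0, 20.7 and 24.3 CPM in bIP at 1024 bp (chr15:16321980-16322884), against 6.19, 6.04, 4.89 and 6.94 in N, 2.98 and 3.56 in bRG, and 2.88, 2.68 and 5.49 in aRG. N was higher than bRG there (log2 1.14 ± 0.29 SE, edgeR adjusted p = 0.00147). HEY2, a repressor that Notch signalling induces, had 5.37, 6.60, 4.51, 9.59 and 9.32 CPM in bIP at 677 bp, against 2.22, 2.51, 1.25 and 0.516 in N, 3.54 and 4.26 in bRG, and 3.48, 3.05 and 3.58 in aRG. At HEY2, N was lower than aRG (log2 −1.08 ± 0.34, edgeR adjusted p = 0.00794) and bRG (−1.24 ± 0.41, edgeR adjusted p = 0.0113). The HEY2 call against aRG was lost within the first library series (edgeR adjusted p = 0.0902) and with scaling over regions under a peak of all 4 cell types (0.0667), and that against bRG without bRG replicate 2 (0.0832). The third gene was MFNG.

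Excitatory neuron genes had 11 of 264 regions, near 6 of 15 genes measured, a share of 4.17% close to the 5.02% of all regions. NEUROD2, a neuronal basic helix-loop-helix gene, had 13.2 ± 2.92 CPM in bIP at 7884 bp, 10.7 ± 1.96 in N, 4.29 and 4.31 in bRG, and 2.25, 1.99 and 3.97 in aRG. bIP and N overlapped there, and N was higher than aRG (log2 1.95 ± 0.25 SE, edgeR adjusted p = 1.71e-07). SLC17A6, a vesicular glutamate transporter gene, had 13.7 ± 4.02 CPM in bIP, 11.9 ± 2.10 in N, 1.72 and 1.83 in bRG, and 0.987, 0.873 and 1.72 in aRG, in a region also under another cell type's peak. Across the 11 regions N was higher than aRG in 7 and lower in 0, beside 40.7% and 9.95% of all bIP-only regions and 37.1% and 29.2% of all regions.

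Radial glia genes had 7 of 191 regions, or 3.66%, near GLI3, PARD3 and PTPRZ1. bIP had the highest mean in 3 of the 7. At the promoter of GLI3, a Hedgehog pathway factor, bIP had 58.9 ± 10.4 CPM, below the 75.7 and 65.8 of bRG and the 88.2, 89.8 and 75.9 of aRG and above the 29.2 ± 2.94 of N. PTPRZ1, a receptor phosphatase gene of radial glia, had 4.83 ± 1.69 CPM in bIP, 7.72 ± 4.48 in N, 15.7 and 15.3 in bRG, and 9.28, 7.67 and 16.0 in aRG. Both regions were also under a peak of another cell type.

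Cell cycle genes had none among 70 regions of 18 genes, and mesenchyme genes none among 59 regions of 9 genes, beside 5.02% of all regions. Markers of other lineages gave 3 of 59 regions (5.08%) for the GABAergic lineage and 2 of 70 (2.86%) for choroid plexus and cortical hem. They gave 3 of 29 (10.3%) for the oligodendrocyte lineage and astrocytes and 1 of 20 (5.0%) for pluripotent cells. SP8, a factor of interneuron progenitors, had 17.2, 17.3, 18.0, 30.4 and 29.3 CPM in bIP at 1334 bp, against 15.0 ± 2.41 in N, 23.7 and 23.4 in bRG, and 14.5, 14.9 and 28.0 in aRG. The promoter of GSX2, a ventral forebrain factor, had 5.83 ± 2.47 CPM in bIP, 6.36 ± 0.598 in N, 6.11 and 6.13 in bRG, and 3.55, 2.99 and 7.20 in aRG. Neither was separated from the other cell types. PDGFRA, which marks oligodendrocyte precursors, had 4.20, 4.40, 3.26, 5.70 and 12.5 CPM in bIP, against 1.80 ± 0.419 in N, 1.67 and 1.64 in bRG, and 1.15, 1.12 and 2.01 in aRG. CSPG4, another such marker, had 4.33 ± 2.10 CPM in bIP and 1.46 ± 0.118 in N. At the third, OLIG2, and at PDGFRA and CSPG4, every bIP library was above every other library. This pattern was present in 45.3% of bIP-only regions and 6.25% of all tested regions. The water channel gene AQP1 had 2 regions with 1.67 and 2.36 CPM in bIP, and POU5F1, the pluripotency factor gene, had 2.41 ± 0.429 CPM in bIP, with 2.42 and 2.39 in bRG.

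The listed names with most bIP-only regions were Y_RNA with 91 and Metazoa_SRP with 28, which are names shared by copies on 21 and 20 chromosomes and so are not single genes. DNAJC19P8, a pseudogene, followed with 11 of its 31 regions, and AC069271.1, LINC00445 and RNU6-463P had 10 each. Among protein-coding genes, named after the counts were seen, DOK5, an adapter protein gene, had 7, with bIP means of 1.40 to 4.98 CPM. INSYN2A, SARDH, SIPA1L2, SPOCK1, SULF1 and TEX29 had 6 each. SULF1, an extracellular sulfatase gene, had 6 of its 20 regions in the set, and in 5 of the 6 the second bIP series was higher than the first (edgeR adjusted p below 0.05). In the other 6 of these genes that held for 0 to 3 regions each, with 0 at INSYN2A and SIPA1L2, beside 34.7% of all bIP-only regions and 8.47% of all regions. Counted in windows of 500000 bp, the densest was chr10:66500001-67000000, where 17 of 46 bIP intervals were found only in bIP.

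Comparisons between the other cell types were tested over all 200931 regions with edgeR. They are not independent of the choice of regions, since the rule took out every interval with a peak of N, bRG or aRG, and those peaks come from the same cell types. Regions under N-only peaks were higher in N than in aRG in 95.6% and regions under aRG-only peaks lower in 78.7%. No interval of either kind could be chosen, though 260 linked regions were also touched by a peak of another cell type. Counts over the bIP-only regions are therefore given beside all regions as a description. N against aRG asks whether bIP-only chromatin was more open in the neurons or in the stem cells. Together 4753 of 9388 bIP-only regions differed, beside 66.4% of all regions. N was higher than aRG in 3819 of 9388 bIP-only regions, or 40.7%, beside 37.1% of all regions. N was lower in 934, or 9.95%, beside 29.2% of all regions. The median log2 difference was 0.51, beside 0.18 over all regions. Regions under shared bIP peaks split otherwise, with 29.7% higher and 35.9% lower in N, and regions under no peak had 40.5% higher and 12.9% lower. Within the second library series, where aRG had 1 library, N was higher in 1960 bIP-only regions, or 20.9%, beside 26.8% of all regions, and lower in 719, or 7.66%, beside 19.7%. The median there was 0.30 beside 0.20 over all regions. Within the first it was higher in 4473, or 47.8%, beside 37.5%, and lower in 729, or 7.80%, beside 30.0%, with a median of 0.72 beside 0.15. The split depended on the library scaling. With scaling factors taken from regions under a peak of all 4 cell types, an alternative added after seeing the data, 4888 (52.1%) were higher and 406 (4.32%) lower, beside 43.6% and 21.6% of all regions. Without a count filter it was 3133 (33.4%) and 1309 (13.9%), beside 33.0% and 33.2%. The median of all regions was 0.51 and −0.01 in these fits, while the median of bIP-only regions stayed 0.34 and 0.32 above it, against 0.33 in the main scaling.

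The split between N and bRG depended on the model. In all 4008 regions differed, beside 58.1% of all regions. N was higher in 3175 regions, or 33.8%, beside 32.2% of all regions, and lower in 833, or 8.87%, beside 25.8%. The median log2 difference was 0.41, beside 0.12. Regions under no peak had a like split, with 30.4% higher and 12.2% lower in N and a median of 0.37. Regions under shared bIP peaks had 28.4% higher and 28.3% lower, with a median of −0.01. Both bRG libraries belong to the second series, and within that series N was higher in 2556 (27.2%, beside 30.4% of all regions) and lower in 1044 (11.1%, beside 23.3%), with a median of 0.22 beside 0.11. With a replicate block in place of the series term, 2099 were higher (22.4%, beside 30.8%) and 1357 lower (14.5%, beside 25.5%), and the median was 0.14, beside 0.13 over all regions. Fitted with these 2 groups alone, 2289 were higher (24.6%, beside 29.5%) and 1270 lower (13.6%, beside 26.1%), with a median of 0.11 beside −0.01. The excess of the median over all regions was thus not present with the replicate block. That block sets bRG, all of the second series, beside same-numbered libraries of the other cell types, all of the first. It therefore cannot separate bRG from the library series. With scaling over regions under a peak of all 4 cell types, 3376 were higher (36.0%, beside 34.3%) and 524 lower (5.58%, beside 22.0%). This comparison and N against aRG share the N libraries.

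The regions with the smallest p-values between N and aRG were all also under another cell type's peak. They were near AC073023.1, AL353693.1 and AC021915.2, higher in N, and near RPS20P22, AC091181.1 and RN7SKP37, lower in N. At AC073023.1 (chr8:106104290-106106173) bIP had 10.0, 7.82, 7.28, 20.0 and 20.4 CPM and N had 39.5, 29.6, 32.3 and 53.8, against 2.27 and 3.09 in bRG and 1.50, 1.43 and 4.61 in aRG. N exceeded aRG by 3.95 ± 0.29 on the log2 scale (edgeR adjusted p = 2.49e-11). At RPS20P22 (chr8:73792955-73795711) bIP had 20.0 ± 5.21 CPM and N had 5.73, 6.52, 4.22 and 3.05, against 46.9 and 43.6 in bRG and 63.4, 70.6 and 49.3 in aRG, and N fell by 3.58 ± 0.19 relative to aRG (edgeR adjusted p = 2.29e-12). In both regions bIP lay between N and radial glia.

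Regions free of other peaks were ranked in the same way after those values were seen. A region 45024 bp from PIK3R1, the gene of a regulatory subunit of phosphoinositide 3-kinase, had 3.14, 3.49, 3.12, 7.64 and 7.77 CPM in bIP and 9.70, 5.36, 11.7 and 17.2 in N, against 1.31 and 1.54 in bRG, and 0.671, 0.686 and 1.81 in aRG. The difference of N over aRG was 3.25 ± 0.27 (edgeR adjusted p = 1.76e-10). MIR3145 had 14.6 ± 1.42 CPM in bIP and 17.0 ± 5.91 in N at 7014 bp, against 1.47 and 1.50 in bRG, and 0.711, 1.06 and 2.16 in aRG (N over aRG 3.69 ± 0.31, edgeR adjusted p = 1.96e-10). The third, near the pseudogene SPATA31B1P, had 8.99 ± 1.78 CPM in bIP and 11.9 ± 3.97 in N, against 0.909 and 1.17 in bRG. At MIR3145 and SPATA31B1P the bIP and N libraries overlapped, though only bIP had a called peak.

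Among regions free of other peaks, the 3 with the smallest p-values for lower counts in N than in aRG had their highest counts in radial glia, not in bIP. At OSTM1-AS1, with a listed distance of 0, bIP had 6.65, 7.05, 5.13, 5.52 and 5.65 CPM and N had 1.75, 2.04, 1.63 and 0.985, against 10.5 and 8.71 in bRG and 6.95, 7.98 and 9.90 in aRG (N against aRG −2.37 ± 0.23, edgeR adjusted p = 3.27e-09). AC007350.1 had 3.77 ± 1.41 CPM in bIP and 1.01 ± 0.183 in N, against 7.07 and 6.09 in bRG and 3.71, 3.18 and 7.45 in aRG. AL122058.1 had 2.58 ± 0.239 CPM in bIP and 0.925 ± 0.477 in N, against 4.19 and 5.66 in bRG and 4.50, 5.92 and 7.15 in aRG. In all 3 the mean of bRG was above that of bIP.

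Between N and bRG, the regions free of other peaks with the smallest p-values for higher counts in N were near RNU1-148P, SLIT3, a guidance ligand gene, and SV2B, a synaptic vesicle protein gene. The SLIT3 region at 13044 bp had 1.66, 1.29, 1.59, 5.48 and 5.60 CPM in bIP and 5.57, 5.84, 16.9 and 26.5 in N, against 1.16 and 1.83 in bRG, and 1.26, 1.37 and 3.19 in aRG. N exceeded bRG by 3.78 ± 0.31 (edgeR adjusted p = 3.73e-10), and in both bIP and N the libraries of the second series had the higher values. SV2B had 1.79 ± 0.958 CPM in bIP and 7.28 ± 3.96 in N, against 0.354 and 0.328 in bRG and 0.553, 0.499 and 0.784 in aRG. At the RNU1-148P region bIP had 1.85, 2.13, 1.59, 5.70 and 5.41 CPM and N had 10.4, 7.94, 22.3 and 39.1, against 1.97 and 1.87 in bRG. UNGP1, a pseudogene, had 3.28 ± 0.955 CPM in bIP and 0.578 ± 0.319 in N, against 5.25 and 4.45 in bRG (N against bRG −2.92 ± 0.36, edgeR adjusted p = 1.92e-07).

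No bIP-only region differed between bRG and aRG in edgeR at an adjusted p below 0.05, beside 0.0% of all regions. At an unadjusted p below 0.05, 524 of the 9388 differed, beside 8197 of all 200931. DESeq2 called 0 of them and 7 of all regions. The median log2 difference was 0.03, beside −0.01 over all regions. It was 0.26, beside −0.01, without the series term, and 0.35, beside 0.01, with a replicate block in its place. Fitted with these 2 groups alone, 8 were higher and 23 lower, or 0.349% called, beside 0.63% of all regions. Both bRG libraries belong to the second series and aRG has 1 library there. The fits without the series term and with the replicate block therefore mix cell type with library series.

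The 5 bIP libraries were not alike in these regions. The bIP peaks that chose the regions are peaks of the same cell type, so the bIP counts compared here are not independent of the choice, and the counts below are a description. Between the library series 3387 regions differed, beside 13.9% of all regions. The second library series was higher than the first in 3259 of 9388 regions, or 34.7%, beside 8.47% of all regions, and lower in 128, or 1.36%, beside 5.47%. The median log2 difference was 0.55 in bIP-only regions, 0.24 under shared bIP peaks, −0.32 under no peak and −0.08 over all regions. Per library, the median bIP-only region had 3.93 and 4.10 CPM in bIP replicates 4 and 5, of the second series, against 2.76, 2.78 and 2.98 in replicates 1 to 3. In regions under no peak the order was the other way, with medians of 0.574 and 0.531 CPM in replicates 4 and 5, against 0.681, 0.711 and 0.832. So the contrast between bIP peaks and peak-free regions was larger in the second series, and the part of this in the series difference was not tested. With scaling over regions under a peak of all 4 cell types 1665 were higher (17.7%) and 189 lower (2.01%), while over all regions 4.69% were higher and 7.42% lower, which turns the background's direction. Without bIP replicate 5, which leaves 1 bIP library in the second series, the median log2 difference was 0.49, beside −0.04 over all regions. Without replicate 1 the test called 2154 higher (22.9%, beside 5.38% of all regions) and 51 lower (0.543%, beside 3.06%). Library series and any difference in culture or sort between them cannot be told apart.

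**Figure D5:**
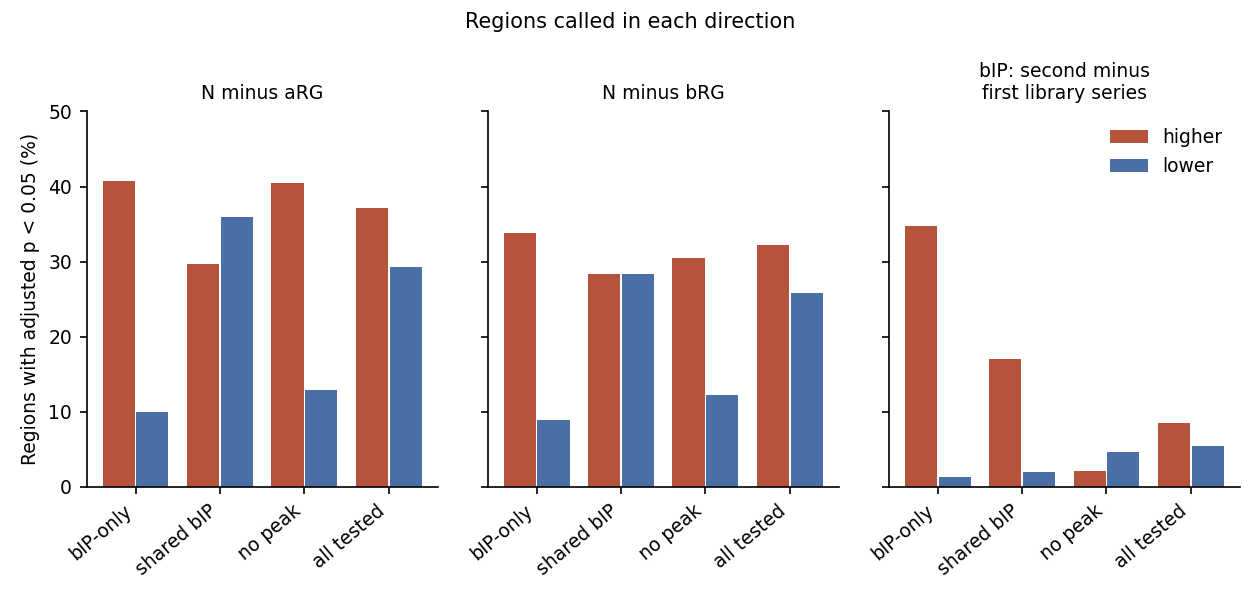
Percent of regions with an edgeR adjusted p below 0.05, higher and lower, for bIP-only regions, shared bIP regions, regions with no peak and all regions tested. For N minus aRG and N minus bRG the bIP-only bars for lower calls stand at 9.95% and 8.87% and those of all regions at 29.2% and 25.8%. Those of regions with no peak stand at 12.9% and 12.2%. For the second minus the first library series in bIP, 34.7% of bIP-only regions are higher, against 8.47% of all.

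TCF7L2, the gene of a Wnt pathway factor, was closest to the bIP-only region with the smallest edgeR p-value between the bIP series. Its region at 8884 bp (chr10:108207338-108208571) had 16.0 and 15.3 CPM in bIP replicates 4 and 5, against 1.63, 2.26 and 1.94 in replicates 1 to 3 (log2 3.03 ± 0.25 SE, edgeR adjusted p = 4.14e-10). In the other cell types the TCF7L2 region had 0.584, 1.43, 0.864 and 0.610 CPM in N, 2.02 and 1.97 in bRG, and 1.11, 0.873 and 2.16 in aRG. The first-series bIP libraries were thus at the level of radial glia there. SRGAP3-AS1 had 15.1 and 16.7 CPM in replicates 4 and 5, against 2.16, 3.10 and 2.36 (2.66 ± 0.23, edgeR adjusted p = 5.49e-10), and N values lay on the same side, with 8.64 and 12.1 in its second-series libraries and 3.86 and 4.01 in the first. AC007790.1 had 17.7 and 18.8 CPM, against 1.70, 1.75 and 3.60 (2.99 ± 0.26, edgeR adjusted p = 6.19e-10).

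Fewer regions were lower in the second series. VPS8, the gene of an endosomal tethering subunit, had 1.72 and 2.08 CPM in bIP replicates 4 and 5 at 131763 bp, against 8.09, 8.92 and 8.18 in replicates 1 to 3 (log2 −2.14 ± 0.27 SE, edgeR adjusted p = 8.28e-07). AP003352.1 had 2.03 and 2.17 CPM, against 5.90, 5.11 and 6.38 (−1.46 ± 0.27, edgeR adjusted p = 0.000291). SLC16A7, a monocarboxylate transporter gene, had 3.80 and 3.19 CPM, against 7.71, 7.95 and 11.0 (−1.33 ± 0.25, edgeR adjusted p = 0.000292). Higher calls in the second series were most frequent in the weakest peaks. In the bin of lowest −log10 q, 43.7% of regions were higher in the second series, against 30.7%, 32.5% and 32.0% in the next 3 bins. Lower calls went the other way, with 0.0423%, 0.172%, 1.36% and 3.88% in the same order. Over all regions 8.47% were higher and 5.47% lower. The bins use the q-values of the peaks that chose the regions, so these shares are a description.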

How the data were processed

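ATAC-seq counts of 14 libraries of 4 sorted cell types were used. The authors deposited 1 table of whole-number read counts per region, not normalized, and 1 consensus peak set per cell type. The deposited sets give each peak a fold enrichment (a ratio) and a −log10 q. The submitters' processing notes list the demultiplexer bcl2fastq, the peak caller MACS2, and hg38 and panTro6 as builds. Per the file headers, count regions have gorGor6 positions. The peak sets state no build and were taken as gorGor6, because 63.4% of regions off chromosomes 2A and 2B lay under a peak, against 11.6% after a shift of 50000 bp. How reads were aligned and counted, and whether cut sites were shifted, is not given in the sources used here. Genome sequence was not used here.

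Of 218080 regions, 13823 with no gorilla position, all at counts of 0, and 8 repeats were left out. Libraries held 12834983 to 26660427 counts, so 3 counts equal 0.113 to 0.208 CPM, which covers counting error only. CPM used TMM-scaled totals. edgeR 4.0.16 in R 4.3.3 fitted quasi-likelihood models to all 14 libraries, with cell type and library series as terms (9 residual degrees of freedom), over the 200931 regions kept by filterByExpr, and with 7 means for the bIP series contrast. Adjusted p-values are Benjamini-Hochberg values over these regions, with a threshold of 0.05. The test was checked on simulated counts. Most pairs of replicates differed by more than sampling noise, and chi-square values per degree of freedom lay between 1.08 and 12.2. The closest pairs, replicates 1 and 2 of aRG (1.08) and of bIP (1.09), differed by little more than sampling noise. Each library still counted as 1 sample. If such a pair came from 1 culture, the spread between libraries is understated. Protein-coding status came from a RefSeq gene table (NHGRI_mGorGor1-v2.1_pri).

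The regions, gene lists and tests were chosen with earlier results of these data known. Regions were named by rule: the 6 highest in bIP CPM, the 6 highest in −log10 q, the 6 most frequent closest genes, every region of the intermediate progenitor list, the 2 highest of each other list, the 4 highest coding promoters, and the 3 smallest p-values in each direction. Alternatives covered scaling, filter, test (DESeq2 1.42.0), model, left-out libraries, series and the definition of the regions.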

Additional observations from a re-analysis of the deposited data

Results flagged for a closer look

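In 8 of 146 groups of 4 or 5 libraries checked at the named regions, 1 library lay far from the rest by Dixon's criterion, which chance alone meets in about 1 of 20 groups. bIP replicate 3 was low at LINC01967, with 18.6 CPM against 25.9 to 28.0 in the other bIP libraries, and at LINC01686, with 17.3 against 24.4 to 26.8. bIP replicate 5 was high at PDGFRA, with 12.5 CPM against 3.26 to 5.70, and bIP replicate 4 was high at LINC00445, with 13.6 against 7.21 to 8.89. Among N libraries, replicate 1 was high at the MDM1 promoter, with 6.50 CPM against 4.34 to 4.56, and replicate 2 was high at MFNG, with 2.78 against 1.17 to 1.44. N replicate 4 was low at the NHLH1 region at 1321 bp, with 1.88 CPM against 2.65 to 2.73, and at PDGFRA, with 1.17 against 1.97 to 2.06.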

How the results depend on the processing

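Among bIP-only regions, N against aRG, N against bRG and the bIP series comparison had more higher than lower calls in every alternative run. All regions leaned the same way in the main fits, with 37.1% higher and 29.2% lower, 32.2% and 25.8%, and 8.47% and 5.47%. Without a count filter they did not in N against aRG (33.0% and 33.2%). With the replicate block, 22.4% of bIP-only regions were higher in N than in bRG, beside 30.8% of all regions. Of the recomputed counts and levels, 70 stayed close to the reported value and 11 did not. Within the second library series N against aRG gave 2679 calls, in place of 4753. That series has 1 aRG library, and calls fell over all regions as well. The median log2 difference in it was 0.30, beside 0.20 over all regions, in place of 0.51 and 0.18. The bIP-only regions above the median −log10 q are fewer by construction, with 4857 tested. Among them calls numbered 2445 in N against aRG, 1923 in N against bRG and 1684 between the bIP series. Over all regions 66.4%, 58.1% and 13.9% were called. Of the bIP intervals above the median −log10 q, 1160 of 35695 were bIP-only. Scaling over regions under a peak of all 4 cell types gave 1854 calls between the bIP series (19.7%, beside 12.1% of all regions). bRG against aRG, with 0 calls in edgeR, gave 31 with those 2 groups fitted alone (0.349%, beside 0.63% of all regions). The cause was not tested for the second series, the scaling and the 2 groups alone. Leaving out 1 library at a time gave 3826 to 4620 calls in N against aRG, 2831 to 4050 in N against bRG, 0 to 1 in bRG against aRG and 1715 to 2908 between the bIP series. The low end of the last was without bIP replicate 5 (18.3%, beside 5.6% of all regions), and without bIP replicate 1 it was 2205 (23.5%, beside 8.44%). In N against aRG these fits called 40.8% to 49.2% of bIP-only regions, beside 60.7% to 68.5% of all regions. In N against bRG the fits without 1 N library called 40.5% to 43.1%, beside 54.8% to 60.9%. With a replicate block in place of the series term, N against aRG gave 4469 calls (47.6%, beside 65.9% of all regions). N against bRG gave 3456 (36.8%, beside 56.3%), with 2099 higher and 1357 lower, in place of 3175 and 833. Its median was 0.14, beside 0.13 over all regions. The block sets bRG beside same-numbered libraries of the first series, so it cannot separate bRG from the library series. Between bRG and aRG the block gave 12 calls (0.128%, beside 0.158%). Correlations of same-numbered libraries ran from −0.05 to 0.15, and those of differently numbered ones from −0.21 to 0.29. They do not settle whether the replicate numbers pair samples. The deviations were taken from group means, which mix both library series in N and aRG, and bIP was not checked. Of 792 recomputed values of single named regions, 740 kept the call and 52 lost it in the same direction, and 0 reversed. DESeq2 gave 4402 calls in N against aRG (46.9%, beside 65.2% of all regions) and 3816 in N against bRG (40.6%, beside 56.4%). It gave 0 in bRG against aRG (beside 0.00348%) and 2784 between the bIP series (29.7%, beside 10.6%). The part of depth (12834983 to 26660427 counts per library) in these calls was not tested.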
